A study of Macaca mulatta with 20 samples.

Results

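Kinesin genes were read in rhesus macaque RNA from cerebral cortex, pancreas, testis and thymus and from immortalized fibroblasts, 5 sources in all. A gene was taken as a kinesin gene where its only annotated symbol was KIF followed by a digit or KIFC followed by a digit. In all 41 such genes were found, 32 among the 14132 genes of the Rhesus Macaque Genome Array (the rhesus chip) and 41 among the 19775 genes of the Human Genome U133 Plus 2.0 Array (the human chip). All 32 genes of the rhesus chip were also on the human chip, and 9 were on the human chip only (KIF1A, KIF2B, KIF11, KIF13B, KIF14, KIF15, KIF18B, KIF20A and KIF21B). Total RNA of each source, extracted with Trizol, was split into aliquots, labeled from 5 ug and hybridized with 2 arrays of each chip, so 20 arrays were read. These are technical replicates of 1 RNA source, and the p-values given here measure the spread between such arrays, not the spread between animals. No source received a treatment. The fibroblasts were immortalized cells in culture, whereas the other sources were whole tissues that hold many cell types. Strain, age, sex, number of animals and how the fibroblasts were immortalized are not stated in the labels or the study's methods.

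Kinesins are motor proteins that use ATP to move along microtubules. Transport kinesins carry vesicles, organelles and RNA, and neurons depend on them to supply long axons and dendrites from the cell body. Mitotic kinesins build the spindle, move chromosomes and take part in cytokinesis, and their RNA is known to be most abundant in cells that are about to divide. Other kinesins work in cilia and flagella, shorten microtubules or have no well established role. By these textbook roles, the 41 genes comprised 17 transport, 13 mitotic and 11 other kinesins on the human chip, and 14, 7 and 11 on the rhesus chip. In whole tissue, fewer cells of a type and less RNA per cell cannot be told apart.

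All values are log2 expression levels of a probe set, the group of short probes that reads 1 transcript, and a gene was read from its brightest probe set. By limma over all probe sets, the arrays of a source were compared with the average of the remaining 4 sources. Calls required an adjusted p (Benjamini-Hochberg) below 0.05 together with a log2 difference of at least 1 in size. Levels of different genes were not compared, because probes differ in how strongly they bind. Control probe sets for bacterial RNA absent from the samples had mean levels up to 3.12 on both chips, and a level at or below this floor is close to no signal. A difference with such a level on 1 side is not an exact fold. On the rhesus chip 4 kinesins stayed at or below the floor in every source (KIF3A, KIF12, KIF16B and KIF26B), and on the human chip 7 did (KIF2B, KIF7, KIF19, KIF24, KIF25, KIF27 and KIFC3). Marker genes were checked against the labeled sources. Neuronal markers were called higher in cortex for 4 of 4 genes on the rhesus and 8 of 8 on the human chip, and thymocyte markers in thymus for 5 of 5 and 7 of 8. For exocrine pancreas in pancreas the counts were 5 of 5 and 5 of 5, and for fibroblasts in the fibroblasts 5 of 5 and 5 of 6. Markers of the somatic cells of the testis were called higher in testis for 5 of 5 and 4 of 5 genes, but those of male germ cells for 3 of 6 and 4 of 12 genes. In testis the late germ cell markers PRM1, PRM2, TNP2, ODF1 and ACRV1 were at or below the floor on the human chip.

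Transport kinesins had their highest level in cerebral cortex more often than in any other source, for 7 of 14 genes on the rhesus and 10 of 17 on the human chip. Mitotic kinesins were highest in thymus for 6 of 7 and 11 of 13 genes. The map of all members by array shows these blocks. The counts include members that were not called, such as KIF21B in cortex and KIF11 in thymus on the human chip. How often each source was highest over all genes was not counted.

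**Figure D1:**
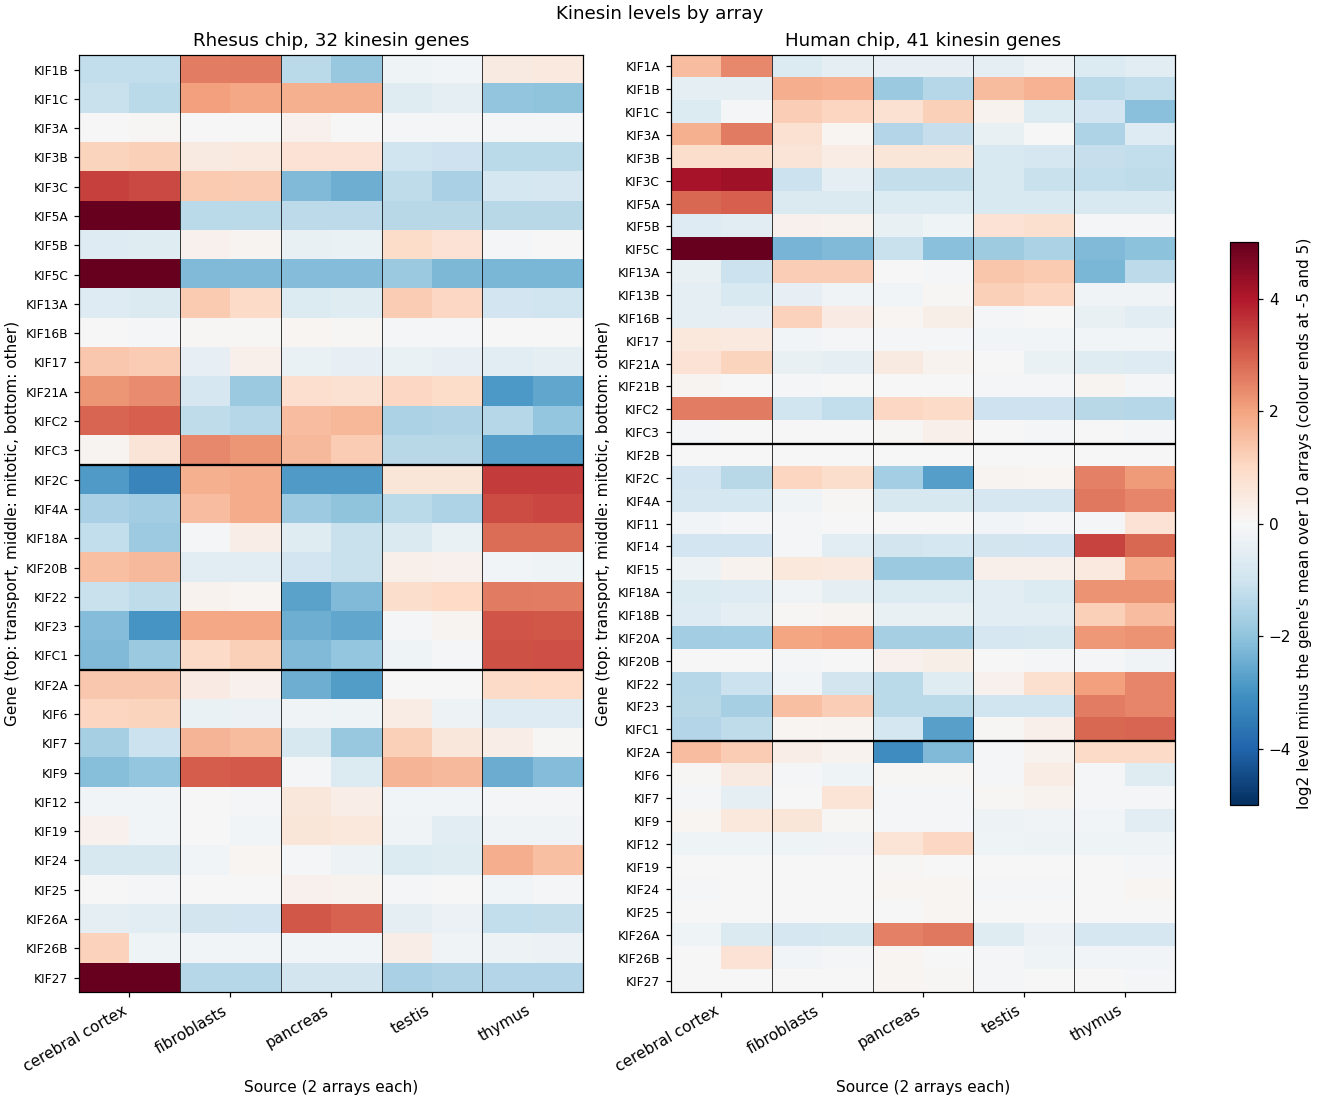
Log2 level of every kinesin gene on each array minus the mean of that gene over its 10 arrays, for 32 genes on the rhesus chip (left) and 41 on the human chip (right), with 2 arrays per source. Lines divide transport (top), mitotic (middle) and other kinesins (bottom). In thymus 6 of 7 mitotic kinesins on the rhesus chip and 11 of 13 on the human chip were at their highest, and KIF5C was highest in cortex on both.

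In cerebral cortex, 7 transport kinesins were higher and 2 lower on the rhesus chip, where 16.6% of all genes were called higher and 21.1% lower. The human chip gave 8 higher and 0 lower, with 11.0% and 9.99% of all genes called. The median difference of the transport kinesins was 0.97 and 0.64 on the log2 scale, against -0.12 and -0.039 over all genes. The 6 called higher on both chips were KIF5C, KIF5A, KIF3C, KIFC2, KIF21A and KIF3B, most of them motors known from axons and dendrites. The transport kinesins lower in cortex on the rhesus chip were KIF1B and KIF1C, neither of which was called when averaged over probe sets. With the spiked controls subtracted, the median of all probe sets in cortex shifted by 0.211 and 0.245, and the share of higher calls went from 46.9% to 55.7% on the rhesus chip and from 54.4% to 66.3% on the human chip.

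The heavy chains of kinesin-1, the motor that carries mitochondria and vesicles away from the cell body, are encoded by KIF5A, KIF5B and KIF5C. KIF5C, known as a neuronal form, read 13.10 and 13.25 on the 2 cortex arrays of the rhesus chip and 2.12 to 2.55 on the other 8. On the human chip KIF5C read 12.69 and 12.65 in cortex and 2.69 to 3.88 elsewhere. Cortex stood far above every other source, which lay near the floor. The log2 difference was 10.95 (SE 0.098, adjusted p = 2.71e-09, limma) on the rhesus and 9.59 (SE 0.233, adjusted p = 7.72e-07) on the human chip. KIF5A, the other neuronal form, read 8.59 and 8.81 in cortex against 1.92 to 2.02 elsewhere on the rhesus chip, and 6.28 and 6.41 against 2.64 to 2.73 on the human chip. Its differences were 6.74 (SE 0.055, adjusted p = 1.86e-09) and 3.67 (SE 0.031, adjusted p = 8.71e-09). Another KIF5A probe set of the human chip had mean levels of 7.95 in cortex and 1.72 to 1.75 elsewhere, a difference of 6.21. KIF5B, the form found in most cells, was far above the floor in every source. It ranged from 11.86 to 13.41 on the rhesus and from 11.39 to 12.85 on the human chip. Its lowest level was in cortex and its highest in testis on both chips, with no overlap between these sources. The plot of transport kinesin levels by array sets the 3 heavy chains side by side.

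**Figure D2:**
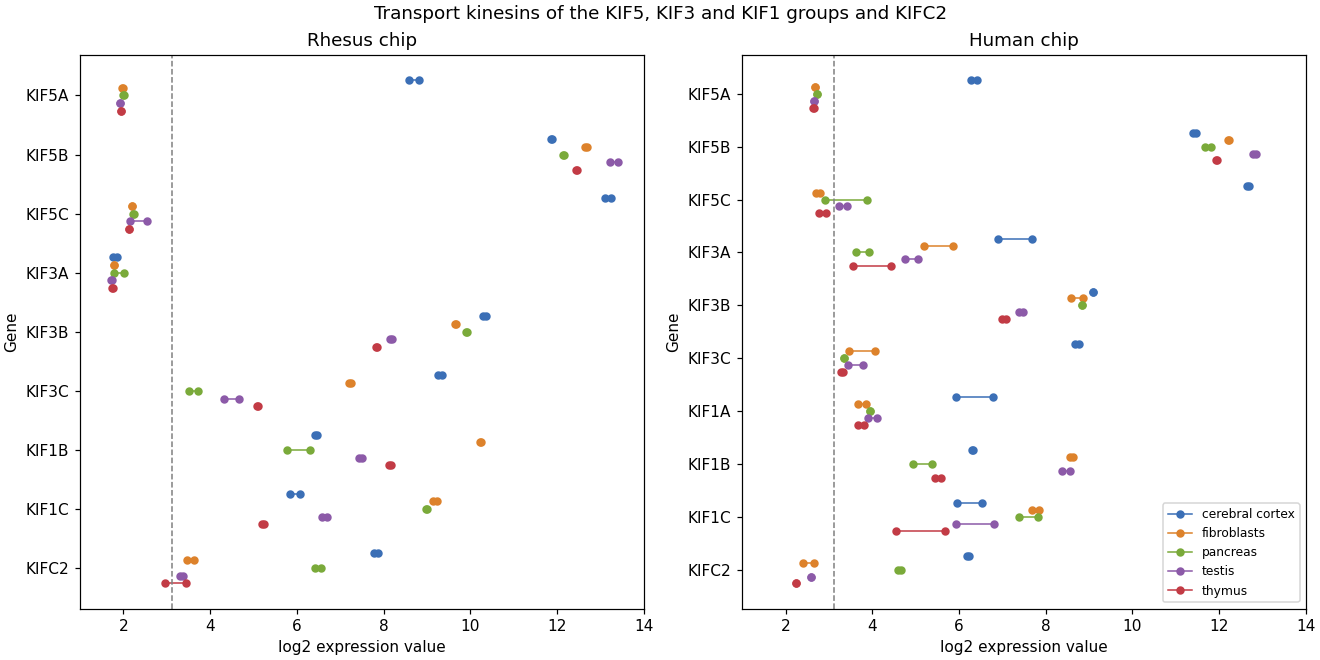
Log2 level (horizontal axis) of 9 transport kinesins on the rhesus chip (left) and 10 on the human chip (right). Each point is 1 array, joined arrays are of the same source, colors are sources, and the dashed line is the floor of 3.12. KIF5A and KIF5C lay above the floor in cortex and mostly at or below it elsewhere, while KIF5B was at 11.39 or above on every array.

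Kinesin-2 is a heteromeric motor of KIF3A with KIF3B or KIF3C and the adaptor KIFAP3, and serves cilia and axons. KIF3C, the partner chain enriched in nervous tissue, read 9.34 and 9.24 in cortex and 3.51 to 7.24 elsewhere on the rhesus chip, where fibroblasts were next at 7.24 and 7.20. Human chip levels were 8.67 and 8.77 in cortex and 3.28 to 4.06 elsewhere. Cortex was above all other arrays on both types, with differences of 4.19 (SE 0.096, adjusted p = 1.51e-07) and 5.21 (SE 0.163, adjusted p = 2.38e-06). KIF3B, the more widely expressed partner, read 10.30 and 10.37 in cortex on the rhesus chip, against 9.91 on both pancreas arrays and 7.83 on the lowest thymus array. Its differences of 1.44 and 1.08 were both called, although on the human chip the value was 0.88 after quantile normalization and 0.72 averaged over probe sets, both below the limit for a call. KIF3A, the common chain, read 6.89 and 7.68 in cortex and 3.55 to 5.88 elsewhere on the human chip, a difference of 2.73 (SE 0.331, adjusted p = 1.25e-03). On the rhesus chip its only probe set read 1.71 to 2.02 on every array, so no source could be told from another.

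Outside the transport group, KIF27, KIF20B and KIF2A, described below, and KIF6 were also called higher in cortex on the rhesus chip. KIF6 differed by 1.36 there, but by 0.68 averaged over probe sets and by 0.30 on the human chip, neither called. The remaining transport kinesins higher in cortex are known from neurons. KIFC2, a motor that runs towards microtubule minus ends, read 7.78 and 7.86 in cortex, 6.42 and 6.55 in pancreas and 2.96 to 3.63 elsewhere on the rhesus chip. The order was the same on the human chip, with 6.20 and 6.23 in cortex, 4.67 and 4.59 in pancreas and 2.23 to 2.66 elsewhere. Cortex and pancreas thus stood apart from the other sources without overlap, and the cortex differences were 3.68 (SE 0.122) and 3.22 (SE 0.063). KIF21A, an axonal motor, read 8.04 and 8.21 in cortex on the rhesus chip, where testis and pancreas lay at 6.63 to 6.89, fibroblasts at 5.03 and 3.99 and thymus at 2.98 and 3.26. Its differences were 2.84 (SE 0.246) and 1.14 (SE 0.129), and the human call ended without cortex array 4, at 0.95, after quantile normalization, at 0.93, and averaged over probe sets, at 0.91. KIF1A, the carrier of synaptic vesicle precursors, is on the human chip only. It read 5.92 and 6.78 in cortex and 3.67 to 4.12 elsewhere, a difference of 2.48 (SE 0.212, adjusted p = 2.40e-04). Another KIF1A probe set had mean levels of 8.29 in cortex and 2.87 to 3.42 elsewhere, a difference of 5.21. A further KIF1A probe set had means of 2.88 to 3.11 and was called in no source. KIF17, a dendritic motor for glutamate receptors, was higher in cortex on the rhesus chip by 1.63 (SE 0.155), with 3.96 and 3.88 against 2.08 to 2.87. Its human chip levels were 3.22 and 3.17 in cortex and 2.53 to 2.58 elsewhere, just above and just below the floor, and was not called.

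Some genes that work with transport kinesins were also higher in cortex. Of 22 such genes listed (kinesin light chains, adaptors, dynein and dynactin subunits and microtubule-associated proteins), the rhesus chip measured 17, of which cortex had 9 higher and 0 lower. Of all genes there, 16.6% were called higher in cortex and 21.1% lower. The human chip measured 20 listed genes, with 13 higher and 0 lower, where 11.0% and 9.99% of all genes were called. The 2 listed genes with the largest differences on both were KIFAP3, the kinesin-2 adaptor, at 3.02 and 4.16, and MAPK8IP1, a scaffold that binds kinesin-1 light chains, at 3.10 and 2.26. The mean level of the neuronal markers was also high in cortex, from 12.91 to 12.95 in cortex against 2.61 to 4.30 elsewhere on the rhesus chip, and from 12.13 to 12.19 against 3.32 to 3.70 on the human chip. Markers of cortex glia were called higher in cortex for 3 of 3 genes on the rhesus and 4 of 5 on the human chip. Their mean level was 11.74 to 11.85 in cortex against 3.55 to 5.98 elsewhere on the rhesus chip. The human chip gave 8.625 to 8.745 against 2.69 to 4.63. The part of neuron or glia content in the kinesin differences was not tested.

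KIF1B, which carries mitochondria and synaptic vesicle precursors, gave opposite calls from different probe sets of the same gene, on both chips. By its brightest probe set it was higher in fibroblasts, where 18.0% of all genes were called higher and 14.9% lower on the rhesus chip, and 11.3% and 8.10% on the human chip. That probe set read 10.21 and 10.25 in fibroblasts and 5.78 to 8.17 elsewhere on the rhesus chip, a difference of 3.21 (SE 0.122, adjusted p = 2.17e-06). The human counterpart read 8.64 and 8.57 in fibroblasts, 8.38 and 8.56 in testis and 4.94 to 6.32 elsewhere, a fibroblast difference of 2.23 (SE 0.116). Fibroblasts and testis lay close together there without overlap. A second probe set pointed the other way. Its mean levels on the rhesus chip were 8.72 in cortex, 5.07 in testis, 3.91 in pancreas, 3.34 in fibroblasts and 3.17 in thymus. The human chip gave means of 6.31, 3.38, 2.18, 1.94 and 1.93 in that order of sources. The cortex difference of this probe set was 4.85 on the rhesus and 3.96 on the human chip, and its fibroblast difference was -1.88 and -1.51, all called. The remaining rhesus probe set had means of 8.94 in thymus, 8.36 in testis, 7.90 in fibroblasts, 7.22 in pancreas and 5.55 in cortex. It was called higher in thymus, at 1.68, where the second was called lower, at -2.09. In cortex it was called lower, at -2.555, and in fibroblasts it was not called, at 0.38. A further human probe set was called only in testis, higher by 1.42, and the last in no source. With the mean of all its probe sets, the KIF1B call in fibroblasts ended on both chips, at 0.57 and 0.098, and in cortex on the rhesus chip the sign turned from -1.53 to 0.25. KIF1B is known to be made in splice forms with different tails. Which form each probe set reads was not analysed here.

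**Figure D3:**
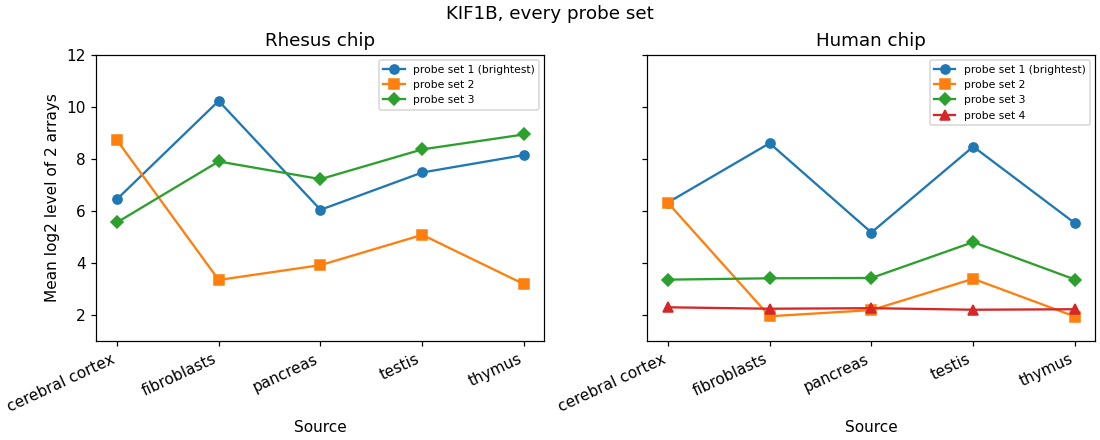
Mean log2 level (vertical axis, 2 arrays) of every KIF1B probe set in each source, 3 on the rhesus chip (left) and 4 on the human chip (right). The brightest probe set was highest in fibroblasts at 10.23 and 8.60, while probe set 2 was highest in cortex at 8.72 on the rhesus chip and 6.31 on the human chip and fell to 3.34 and 1.94 in fibroblasts.

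Transport kinesins in the fibroblasts went in both directions, with 5 of 14 higher and 4 lower on the rhesus chip and 3 of 17 higher and 2 lower on the human chip. The median difference was 0.14 and -0.045, against 0.027 and 0.0023 over all genes. Averaged over probe sets, 2 and 0 were higher. Beside KIF1B, KIF1C and KIF13A were higher on both. KIF1C, a vesicle motor related to KIF1B, read 9.24 and 9.13 in fibroblasts, 8.99 on both pancreas arrays and 5.21 to 6.69 elsewhere on the rhesus chip, with a fibroblast difference of 2.49 (SE 0.067). Its human chip levels were 7.85 and 7.68 in fibroblasts and 7.39 and 7.82 in pancreas, which overlap. The human difference of 1.44 (SE 0.371, adjusted p = 3.57e-02) lost its call in several settings, among them the leaving out of either fibroblast array. KIF13A, an endosomal motor, read 5.09 and 4.74 in fibroblasts and 5.08 and 4.84 in testis on the rhesus chip, against 2.81 to 3.20 elsewhere. Fibroblasts and testis were also highest on the human chip, at 6.51 and 6.49 and at 6.65 and 6.60, against 2.99 to 5.28. Fibroblasts and testis overlapped on the rhesus chip. The KIF13A differences were 1.40 and 1.53 in fibroblasts and 1.46 and 1.69 in testis, and averaged over all probe sets they ran from 0.43 to 0.72, below the limit for a call. The KIF13A call in fibroblasts on the human chip was also lost without either fibroblast array, at 1.52 and 1.54. KIF5C and KIFC2 were lower in fibroblasts on both chips, at -2.78 and -2.81 and at -1.67 and -1.39. KIFC2 lost this call on both with the spiked controls subtracted, at -0.86 and -0.69. The high cortex level is part of the mean behind this difference, and the KIF5C level in pancreas, testis and thymus was near the floor as well.

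Most mitotic kinesins were higher in thymus. There 6 of 7 were called higher on the rhesus chip and 10 of 13 on the human chip, with 0 lower on either, where 16.7% and 9.65% of all genes were called higher. Their median difference was 3.91 and 2.81, against -0.063 and -0.040 over all genes. KIF2C, which takes apart microtubules at kinetochores, read 9.28 and 9.26 in thymus, 7.55 and 7.62 in fibroblasts, 6.36 and 6.35 in testis and 2.48 to 2.94 in cortex and pancreas on the rhesus chip. The human chip read 7.60 and 7.23 in thymus, 6.15 and 5.99 in fibroblasts, 5.21 on both testis arrays and 2.32 to 4.12 in cortex and pancreas. The order of thymus, fibroblasts and testis was the same on both, without overlap, and the thymus differences were 4.38 (SE 0.101, adjusted p = 2.30e-07) and 2.91 (SE 0.277, adjusted p = 4.34e-04).

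KIF23, a subunit of the centralspindlin complex of cytokinesis, read 9.27 and 9.20 in thymus and 8.06 and 8.03 in fibroblasts, with 6.03 and 6.25 in testis and 3.14 to 3.92 in cortex and pancreas. Its thymus differences were 3.91 (SE 0.187) on the rhesus and 3.12 (SE 0.091) on the human chip. KIFC1, a minus-end motor that focuses spindle poles, read 8.82 and 8.86 in thymus against 3.41 to 6.83 elsewhere on the rhesus chip, and 8.06 and 8.09 against 2.48 to 5.46 on the human chip. Its 2 pancreas arrays of the human chip were far apart, at 4.32 and 2.48, and the thymus differences were 4.01 (SE 0.122) and 3.60 (SE 0.429). KIF4A, a chromosome-bound motor, read 8.28 and 8.34 in thymus and 6.55 and 6.87 in fibroblasts on the rhesus chip, against 3.00 to 3.66 elsewhere. Human chip levels of KIF4A were 5.88 and 5.72 in thymus and 2.38 to 3.32 elsewhere, fibroblasts included. Its thymus differences were 4.14 (SE 0.101) and 3.17 (SE 0.067). KIF4A has a near-identical relative, KIF4B, which may share its signal. KIF18A, which aligns chromosomes at the spindle equator, differed by 3.48 (SE 0.220) and 2.81 (SE 0.076), and KIF22, another chromosome-bound motor, by 3.21 (SE 0.118) and 2.81 (SE 0.311). Both were above every array of the other sources in thymus on both types.

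Of the mitotic kinesins on the human chip only, 4 were higher in thymus. KIF14, which acts in cytokinesis, read 6.98 and 6.47 in thymus and 2.62 to 3.49 elsewhere, a difference of 3.92 (SE 0.159, adjusted p = 1.00e-05). KIF20A, also of cytokinesis, read 6.39 and 6.45 in thymus and 6.18 and 6.26 in fibroblasts, against 2.46 to 3.40 elsewhere, with thymus and fibroblast differences of 2.77 and 2.52 (SE 0.029 each). KIF18B, a microtubule-shortening motor, differed by 1.71 (SE 0.091). KIF15, a spindle motor, read 5.14 and 6.47 on its 2 thymus arrays. Its difference of 1.43 (SE 0.321) was 0.77 without thymus array 4 and was then not called. KIF11, the motor that pushes spindle poles apart, read 2.76 to 3.66 on all human chip, KIF2B 2.19 to 2.25, and neither was called in any source.

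**Figure D4:**
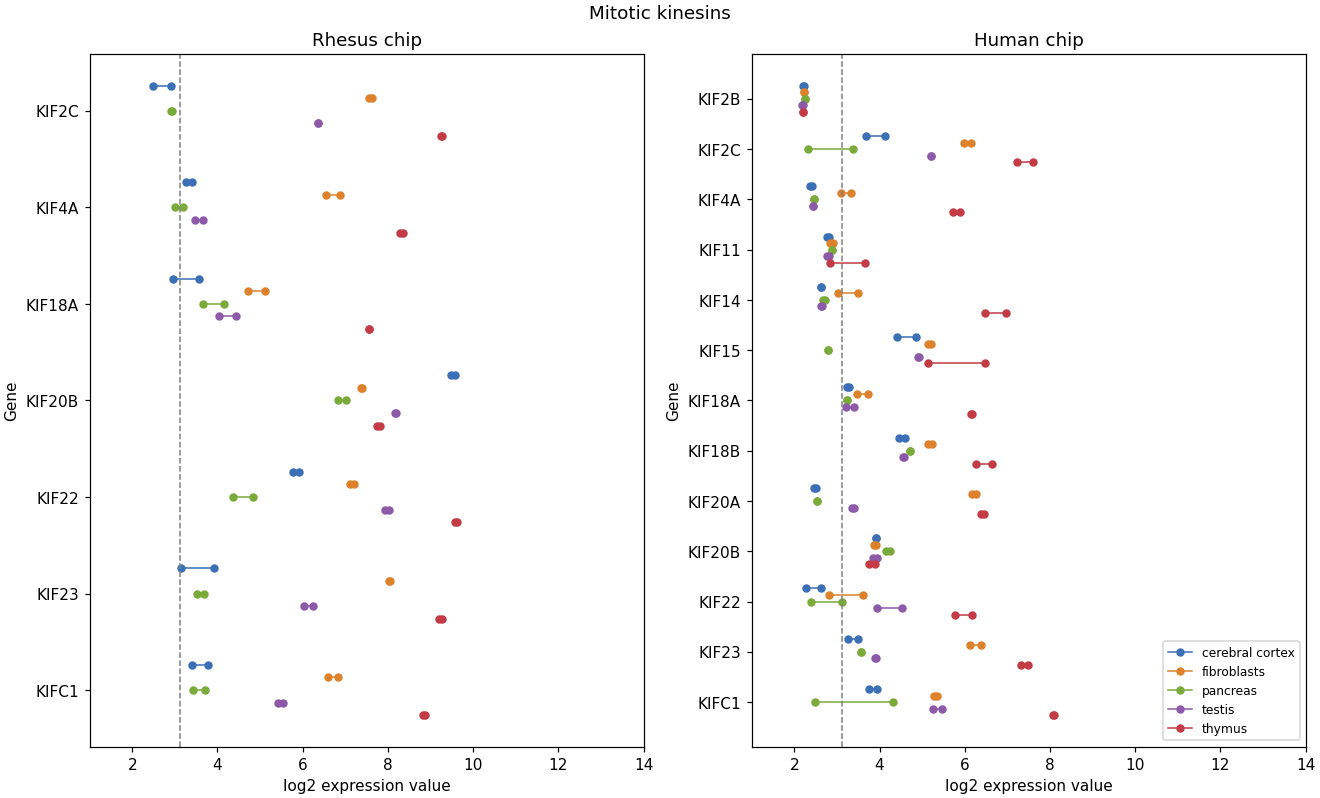
Log2 level (horizontal axis) of the 7 mitotic kinesins on the rhesus chip (left) and the 13 on the human chip (right). Each point is 1 array, joined arrays are of the same source, colors are sources, and the dashed line is the floor of 3.12. Thymus lay to the right of fibroblasts for most genes, for example at 9.28 and 9.26 against 7.55 and 7.62 for KIF2C on the rhesus chip.

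In fibroblasts 4 of 7 mitotic kinesins were higher on the rhesus chip (KIF23 at 2.42, KIF2C at 2.27, KIF4A at 2.13 and KIFC1 at 1.34) and 3 of 13 on the human chip (KIF20A at 2.52, KIF23 at 1.69 and KIF2C at 1.22). Of all genes, 18.0% and 11.3% were called higher in fibroblasts. The median difference of the mitotic kinesins was 1.34 and 0.0057, against 0.027 and 0.0023 over all genes. Averaged over all probe sets per gene, 1 of 13 was called on the human chip, since KIF23 read 0.78 and KIF2C 0.50. KIF2C also lost its human call without either fibroblast array. Dividing cells are known to be common in thymus and in cultured lines, and the 2 sources were therefore also set against each other. No mitotic kinesin was higher in fibroblasts than in thymus by limma on either chip, at an adjusted p below 0.05 or at an unadjusted one, nor by an ordinary analysis of variance. In that contrast 18.0% of all genes were called higher on the rhesus and 11.1% on the human chip, and 16.0% and 9.15% lower. The mitotic kinesins called lower in fibroblasts numbered 6 of 7 and 8 of 13, with a median difference of -1.69 and -1.28, against 0.064 and 0.026 over all genes. Leaving out 1 array gave 6 to 8 on the human chip. There KIF2C, at -1.35, lost the call by ordinary analysis of variance and without any 1 array of a source other than pancreas. KIFC1, at -2.76, lost it there without either fibroblast array or either thymus array. KIF18A had the most negative value of the rhesus chip at -2.64 (SE 0.278) and KIF14 of the human chip at -3.47 (SE 0.201). KIF20A, with levels of 6.18 and 6.26 against 6.39 and 6.45, was not called. The same contrast ran the other way for transport kinesins, of which 7 of 14 and 5 of 17 were higher in fibroblasts and 0 lower. Averaged over probe sets 5 and 1 were higher.

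Subtracting the spiked controls from each array raised the median of all probe sets in fibroblasts minus thymus by 0.52 on the rhesus and 0.41 on the human chip. The share of higher calls went from 42.6% to 60.5% and from 48.6% to 65.8%. Under this scaling 5 of 13 mitotic kinesins were lower in fibroblasts than in thymus on the human chip. For fibroblasts against the mean of the other sources it raised the median by 0.81 and 0.70, and the share of higher calls went from 47.3% to 82.5% and from 56.1% to 86.6%.

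Most of the other cell division genes listed were also higher in thymus. Of 23 spindle and mitosis genes listed, thymus had 14 of 14 higher on the rhesus chip and 21 of 23 on the human chip, and fibroblasts had 8 and 13. Of all genes, 16.7% and 9.65% were called higher in thymus, and 18.0% and 11.3% in fibroblasts. In fibroblasts minus thymus, 1 listed gene was higher on each chip, the cytokinesis gene ANLN, and 10 and 14 were lower. Over all genes 18.0% and 11.1% were higher in that contrast, and 16.0% and 9.15% lower. The 2 listed genes with the largest thymus differences on both chips were TOP2A, a topoisomerase of dividing cells, at 6.04 and 5.52, and CCNB2, a mitotic cyclin, at 5.50 and 5.26. Their mean level over the rhesus chip was 9.21 to 9.25 in thymus, 7.66 to 7.67 in fibroblasts, 6.06 to 6.12 in testis, 4.36 to 4.46 in cortex and 4.05 to 4.14 in pancreas. On the human chip the list mean in thymus, fibroblasts and testis was 7.54 to 7.56, 6.26 to 6.32 and 4.57 to 4.58, with pancreas at 3.29 to 3.31 and cortex at 3.19 to 3.20. The part of the share of dividing cells in the kinesin differences was not tested.

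In thymus 9 of 14 transport kinesins were lower on the rhesus and 8 of 17 on the human chip, with 0 higher on either, where 18.1% and 10.1% of all genes were called lower. The median difference was -1.45 and -0.95. These counts read each gene from its brightest probe set, and another rhesus probe set of KIF1B was called higher in thymus, at 1.68. Averaged over all probe sets per gene, 8 of 14 were lower on the rhesus chip but 1 of 17 on the human chip, KIF5C. The differences were -2.47 and -1.89 for KIF1C, -1.68 and -1.49 for KIF3B, and -1.22 and -2.25 for KIF13A. Averaged over probe sets, KIF13A lost its call on both chips, at -0.68 and -0.63, as did KIF1C at -0.65 and KIF3B at -0.80 on the human chip, where KIF1C also lost it without thymus array 4. KIF3B read 7.85 and 7.83 in thymus on the rhesus chip and 8.14 or more on all others. The human chip read 7.08 and 6.99 against 7.39 or more, so thymus was the lowest source on both. KIF5C, KIFC2 and KIF3C were also called lower in thymus on both chips against a mean that holds their high cortex level. KIF3C on the rhesus chip, at -1.06, was above testis and pancreas in thymus, and lost its call with array medians subtracted, at -0.99, and with the spiked controls subtracted, at -0.89.

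Mitotic kinesins were low in cortex and pancreas. In cortex 6 of 7 were lower on the rhesus and 7 of 13 on the human chip, with a median difference of -2.09 and -1.08. In pancreas 7 of 7 and 7 of 13 were lower, where 23.8% and 15.7% of all genes were called lower, with a median difference of -2.60 and -1.12 against -0.10 and 0.033 over all genes. The high thymus level is part of the mean behind these cortex and pancreas differences. On the human chip KIF14 was called lower in cortex, pancreas and testis, with means of 2.62, 2.70 and 2.65 against 6.73 in thymus. KIF2C on the rhesus chip was also lower in cortex and pancreas than in testis and fibroblasts. The cortex difference of KIFC1 on the human chip, at -1.69 (SE 0.429, adjusted p = 3.15e-02), lost its call when any 1 array of a source other than pancreas was left out. KIF20B, a motor of cytokinesis, was the exception among mitotic kinesins when read from its brightest rhesus probe set. That probe set was higher in cortex, at 9.48 and 9.58 against 6.84 to 8.20, a difference of 1.97 (SE 0.056). Another rhesus probe set of KIF20B read a mean of 6.86 in thymus and 3.17 in cortex, with differences of 3.00 and -1.61, both called and opposite in direction for cortex. A further rhesus probe set was also called higher in thymus, at 1.12, and was not called in cortex, at 0.79. The last was called higher in cortex, at 3.75, and was not called in thymus, at 0.33. KIF20B lay between 3.76 and 4.25 on the human chip and was called in no source.

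In pancreas 5 of 32 kinesins were higher and 14 lower on the rhesus chip, and 4 of 41 and 12 on the human chip, where 9.81% and 5.01% of all genes were called higher. KIF26A, a kinesin without motor activity known from the development of gut neurons, read 7.90 and 7.75 in pancreas and 3.57 to 4.54 elsewhere on the rhesus chip. Human chip levels were 6.38 and 6.49 against 3.00 to 3.64. Pancreas was the only source well above the rest, with differences of 3.77 (SE 0.063, adjusted p = 9.68e-08) and 3.23 (SE 0.144, adjusted p = 1.49e-05). KIFC2 and KIF1C were also higher on both chips, at 2.01 and 1.23 and at 2.24 and 1.24. With the spiked controls subtracted both lost the call on the human chip, at 0.12 each, and KIFC2 on the rhesus chip, at 0.88, as did KIFC3 there, at 0.66. Under this scaling 2 of 32 and 1 of 41 kinesins were called higher in pancreas. Averaged over probe sets, KIF1C at 0.47 and KIFC2 at 0.88 were not called on the human chip. The human KIF1C call was also lost without either pancreas array, either fibroblast array or cortex array 3. Without pancreas array 4 the human count was 2. KIF12, known from kidney and other epithelia, read 3.20 and 3.56 in pancreas and 2.27 to 2.33 elsewhere on the human chip. Its difference of 1.08 (SE 0.085) was 0.98 after quantile normalization, 0.96 with array medians subtracted and 0.90 without pancreas array 4, each below the limit for a call, and it turned to -0.032 with the spiked controls subtracted, as KIF21A on the rhesus chip did from 1.02 to -0.11.

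KIF2A, a microtubule-shortening motor of neurons and spindles, was the kinesin lower in pancreas by the widest margin on the human chip. It read 5.74 and 5.38 in pancreas and 8.14 to 9.54 elsewhere on the rhesus chip, and 5.24 and 6.13 against 8.29 to 9.91 on the human chip. The pancreas differences were -3.27 (SE 0.098, adjusted p = 8.89e-07) and -3.34 (SE 0.226, adjusted p = 8.54e-05). The low pancreas level enters the other contrasts of KIF2A. It was called higher in cortex, at 1.68 and 1.76, and in thymus, at 1.24 and 1.22, and these differences were 0.92 and 0.98 and 0.45 and 0.41 with the pancreas arrays left out, below the limit for a call.

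The pancreas arrays stood apart in 2 ways that touch these counts. Subtracting the spiked controls shifted the median of all probe sets in pancreas by -1.13 on the rhesus and -1.11 on the human chip. The kinesins called lower then numbered 22 of 32 and 31 of 41. The share of higher calls among all calls in pancreas was 28.4% and 22.5%, but 44.7% and 43.1% after quantile normalization and 3.83% and 1.35% with the spiked controls subtracted. The signal of the 3′ probe set of actin exceeded that of the 5′ probe set by 4.58 in pancreas and by 2.03 to 2.79 on the other rhesus chip. For GAPDH this gap was 2.77 against 1.22 to 1.98, and 1.31 against 0.0745 to 0.517 on the human chip. For actin on the human chip it was 2.40 against 1.96 to 2.51. The part of RNA quality in the pancreas differences was not tested.

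In testis 6 of 32 kinesins were higher and 8 lower on the rhesus chip, where 16.1% and 11.2% of all genes were called. Of 41 on the human chip 3 were higher and 7 lower, with 8.67% and 5.63% of all genes. The rhesus count of higher members was 3 with the pancreas arrays left out and 2 with probe sets averaged per gene. KIF13A, described above, was the only member higher in testis on both chips. KIF9, a motor of cilia and sperm flagella, read 7.70 and 7.61 in testis on the rhesus chip, but 9.00 and 9.06 in fibroblasts and 3.53 to 5.93 elsewhere. Its testis and fibroblast differences were 2.08 (SE 0.165) and 3.81 (SE 0.165). Rhesus probe sets of KIF9 were called in opposite directions in testis and in cortex, and on the human chip KIF9 was called in no source. KIF1B was higher in testis on the human chip by 2.07 (SE 0.116), and KIF13B, a relative of KIF13A, by 1.40 (SE 0.104), with 6.79 and 6.67 in testis and 4.83 to 5.68 elsewhere. On the rhesus chip KIF5B was higher by 1.04, KIF22 by 1.18, KIF21A by 1.23 and KIF7, a regulator of Hedgehog signaling in cilia, by 1.10 (SE 0.324). All 4 lost the call in at least 1 other setting.

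The study hybridized the same RNA with both chips, of which only the rhesus type was designed for the macaque. Of the 32 kinesins on both, cortex had 7 called higher and 5 lower on both, fibroblasts 5 and 3, pancreas 3 and 8, testis 1 and 4, and thymus 7 and 7. None was called in opposite directions in any of the 5 sources. Calls on the rhesus chip alone numbered 10, 9, 8, 9 and 6 in the same order, and on the human chip alone 1, 0, 2, 2 and 2. A limma fit over all 20 arrays tested the difference itself. The chips differed in at least 1 source for 20 of the 32 kinesins, and for 42.7% of all genes on both. Of 49 such differences over the 5 sources, the source difference was smaller on the human chip in 41 and on the rhesus chip in 8. This split, and the calls shared by both chips or made on 1 alone, were not counted over all genes. They are therefore not read as a trait of kinesins.

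The widest gap was that of KIF27, a motor-like protein of cilia. On the rhesus chip it read 9.59 and 9.63 in cortex and 2.62 to 3.32 elsewhere, a difference of 6.72 (SE 0.037, adjusted p = 4.34e-10). Its other rhesus probe set had a mean of 7.99 in cortex. Its only human probe set read 2.63 to 2.82 everywhere, and the difference between the chips in cortex was -6.75 (SE 0.058, adjusted p = 6.91e-16). KIFC3, a minus-end motor of epithelia, read 8.27 and 8.08 in fibroblasts, 7.48 and 7.12 in pancreas, 6.02 and 6.52 in cortex, 4.46 and 4.47 in testis and 3.12 and 3.11 in thymus on the rhesus chip. These sources did not overlap, whereas on the human chip KIFC3 read 2.85 to 3.20 in all of them. KIF24, which acts at centrioles, read 5.98 and 5.65 in thymus and 3.34 to 4.24 elsewhere on the rhesus chip, and 2.69 to 2.89 on every human array. KIF3A showed the reverse, with signal on the human chip only. The chips differed for KIF3A in cortex by 2.71 (SE 0.34, adjusted p = 3.03e-05). The scatter of rhesus against human differences sets these members beside the rest.

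**Figure D5:**
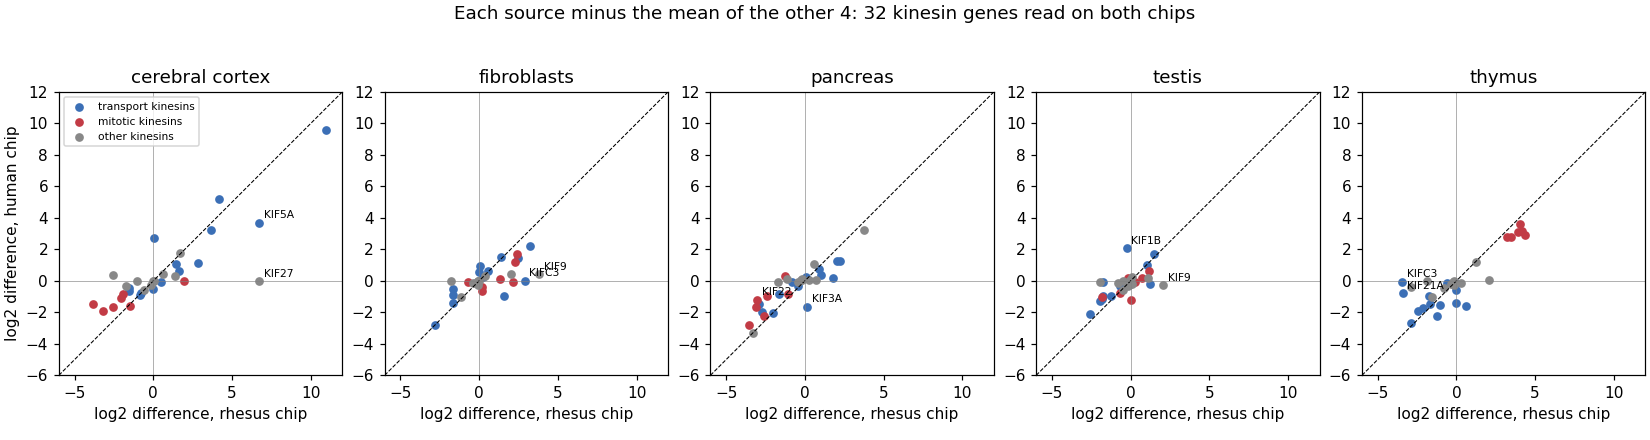
Log2 difference between a source and the average of the remaining 4, on the rhesus chip (horizontal axis) and on the human chip (vertical axis), for the 32 kinesins on both. Each point is 1 gene, colors are roles, the dashed line marks equal values, and the 2 genes farthest from it are named in each panel. KIF27 in cortex lay at 6.72 and -0.028, and 6 of 7 mitotic kinesins in thymus lay together at the upper right, KIF2C at 4.38 and 2.91 among them.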

How the data were processed

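The deposited log2 expression values of 10 rhesus and 10 human arrays were used as given. The submitters' processing notes name RMA for them, with a version not given in the sources used here. Whether arrays of all sources were processed together is not given either. All value columns were mapped to a labeled array, with 0 left out. Control probe sets were removed, and 52766 rhesus and 54613 human probe sets were fitted per chip with limma 3.58.1 in R 4.3.3, with source as the factor. Only probe sets with 1 symbol in the array annotation were named. They numbered 59 for kinesins on the rhesus and 85 on the human chip. Per-array values were given for up to 6 members per source and role, by the size of a difference called the same way on both chips, and for further members named with their values. The members and gene lists were chosen with earlier results of these data known. In simulated cortex differences of 1.5 and 3, the rhesus chip recovered 82 and 98 of 100 and the human chip 91 and 100, with 1 and 2 false calls. The simulation drew independent normal noise and changed 100 probe sets per size of difference, far fewer than were called in the data. It therefore does not measure the rate of false calls in these data. Alternatives were other scalings, means of all probe sets, a filter on dim probe sets, a replicate block, ordinary analysis of variance and leaving out arrays. Sequences and genome positions were not analysed here, and 4 antisense symbols were set aside.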

Additional observations from a re-analysis of the deposited data

How the results depend on the processing

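With probe sets averaged per gene, several counts were smaller. Kinesins higher in testis went from 6 to 2 on the rhesus chip, and transport kinesins lower in cortex from 2 to 0 and higher in fibroblasts from 5 to 2. On the human chip, kinesins lower in pancreas went from 12 to 6 (mitotic ones from 7 to 4), higher in pancreas from 4 to 2 and lower in testis from 7 to 3. Mitotic kinesins higher in fibroblasts went from 3 to 1 there, transport kinesins higher in fibroblasts from 3 to 0, those lower in thymus from 8 to 1 and those higher in fibroblasts than in thymus from 5 to 1. Subtracting the spiked controls shifted the median of all probe sets in pancreas by -1.13 on the rhesus and -1.11 on the human chip. Kinesins lower in pancreas then went from 14 to 22 on the rhesus and from 12 to 31 on the human chip (mitotic ones from 7 to 12), and those higher from 5 to 2 and from 4 to 1. Transport kinesins lower in fibroblasts went from 4 to 1 and from 2 to 1, those higher from 3 to 6 on the human chip, and mitotic kinesins lower in fibroblasts than in thymus from 8 to 5 on the human chip. With no minimum difference the counts were, on the rhesus chip, 4 transport kinesins lower in cortex, 10 kinesins higher in pancreas and 16 lower in testis, and on the human chip 3, 12 and 15, with 6 transport kinesins higher and 6 lower in fibroblasts. With the pancreas arrays left out, 3 kinesins were higher in testis on the rhesus chip, and on the human chip 1 transport kinesin was lower in cortex, as also after quantile normalization, and 4 in fibroblasts. This setting, and the recount of 9 of the counts, were chosen after seeing the data. Leaving out 1 array at a time gave, on the human chip, 2 to 4 kinesins higher in pancreas (2 without pancreas array 4), 1 to 3 transport kinesins higher in fibroblasts (1 without fibroblast array 3) and 0 to 1 lower in cortex (1 without thymus array 3), and moved no other count tested here by over 1.5 times. The cause of these changes was not tested.

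The sign turned for KIF1B in cortex on the rhesus chip (0.25, probe sets averaged), KIF21A in pancreas on the rhesus chip (-0.11, spiked controls) and KIF12 in pancreas on the human chip (-0.032, spiked controls). Of 192 member calls, 53 were lost with probe sets averaged per gene, 23 with the spiked controls, 11 after quantile normalization, 6 with array medians subtracted, 4 by ordinary analysis of variance and 0 with dim probe sets left out. Without the pancreas arrays 15 of the calls outside pancreas were lost. With the replicate block 2 calls were lost, KIF1C in fibroblasts and KIFC1 in cortex on the human chip. Arrays with the same number did not vary together (r from -0.0252 to 0.0101 on the rhesus and from -0.0341 to 0.0177 on the human chip over 10 pairs of sources). These values gave no sign of a pairing by number, but cannot show whether such arrays were handled together, which the labels do not state. Levels at or below the floor of 3.12 hide differences of dim members.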

Other observations

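The 4 antisense symbols of kinesin genes on the human chip (KIF1C-AS1, KIF9-AS1, KIF23-AS1 and KIF25-AS1) were read by 6 probe sets. Their mean levels lay between 2.05 and 3.22 in all 5 sources, with 0 calls in any.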
